A study of Mus musculus with 2 samples.

Results

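Open regions in nonpromoter exons are stretches of accessible chromatin whose summit, the base with the strongest signal, lies inside an exon of a protein-coding transcript and over 1 kb from every protein-coding transcription start site (TSS). In ATAC-seq of mouse hematopoietic stem cells, 414 such intervals were found. They belong to 11202 intervals over 1 kb from a TSS, called distal here, and to 19727 intervals in all that both replicates shared. Each was an entry of the IDR-thresholded peak list of replicate 1, taken once at its summit of highest signal, that overlapped an entry of the replicate 2 list by at least 1 bp. IDR, the irreproducible discovery rate, scores whether a peak keeps its rank when a library is split or repeated.

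ATAC-seq marks accessible DNA by letting the Tn5 transposase cut it and attach sequencing adapters. The series has 1 group with 2 replicates, primary stem cells from male C57BL/6J adults, and the labels name no control, treatment or altered allele. Each library started with 50000 cells, and the age is given as 5 to 6 weeks. The labels give separate biosamples under a common donor identifier, so whether the replicates came from separate animals is not known, and only the label of replicate 1 names sequencing instruments. The lists held 25141 intervals in replicate 1 and 24495 in replicate 2, with no read counts, so the depth is unknown and an interval missing from a list was not called there. A gene was given a promoter interval where any interval reached within 1 kb of one of its TSSs. Against the labelled cell type, 5 of 12 stem cell marker genes (Cd34, Hlf, Kit, Meis1 and Runx1) had a promoter interval in both replicates, a share close to the 41.3% of all protein-coding genes. The same held for 0 of 6 erythroid, 0 of 6 granulocyte and monocyte, 2 of 6 B cell, 1 of 6 T and NK cell, 3 of 5 megakaryocyte and 3 of 6 endothelial and stromal markers, so these counts do not set the stem cell markers apart. The part of other cells in the exonic intervals was not tested.

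Exons are read for their protein code and for the untranslated ends of the messenger RNA, yet the same bases can also bind transcription factors, and some exons are known to work as enhancers of their own or of neighbouring genes. In blood stem cells, factors of the ETS, RUNX and GATA families occupy many distal regulatory elements. CTCF is a zinc finger protein that binds a long, well-defined core sequence and anchors chromatin loops, inside genes as well as between them.

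The sequences below show motif matches in windows around the summits of exonic intervals. The first 6 hold a match to the CTCF core. Of the listed motifs, its share differed most, as a ratio, between exonic intervals and exon sequence at large. Intronic and intergenic intervals also held it far more often than intron and intergenic windows. These 6 sequences come from 4 members of the 3′ untranslated class and 2 of the coding class. A window reaches 150 bp either side of the summit, so a match can lie outside the exon. The Capn2 match does, since the exon with its summit spans chr1:182489965-182490048. The other 6 come from the strongest intervals and from genes of blood biology, with a match to the ETS, RUNX or SP/KLF motif. Each has 30 bases of the mouse reference genome (GRCm38/mm10), written 5′ to 3′ on the strand given, with the motif match in capitals.
Shd, 3′ untranslated, CTCF, chr17:55976415-55976444, minus strand: tggagcaccCCACTAGAGGGCattaaagga
Dennd2a, 3′ untranslated, CTCF, chr6:39463057-39463086, plus strand: cagtctctgCCACCAGGTGGCgtcatagac
Gprin2, 3′ untranslated, CTCF, chr14:34188825-34188854, plus strand: cccaccttcCCAGTAGAGGGCgtctggcca
Spred1, 3′ untranslated, CTCF, chr2:117180694-117180723, minus strand: taaagccatCCAGCAGGTGGCactgcagct
Capn2, coding, CTCF, chr1:182489875-182489904, plus strand: cctcggtgaCCAGCAGAGGGCagcgcgcgc
Synpo2l, coding, CTCF, chr14:20661153-20661182, minus strand: ttcatgcagCCACTAGGGGGCaggagttac
Ncam2, coding, ETS, chr16:81437704-81437733, plus strand: tgtaccacaatgAGGAAGtcaccaccatcc
Pop1, coding, RUNX, chr15:34530258-34530287, plus strand: tgacgcaggggcTGTGGTcaggcccccttc
Man2a1, 3′ untranslated, ETS, chr17:64754277-64754306, minus strand: agaggttataggAGGAAGtggttttgttgt
Enpep, 3′ untranslated, SP/KLF, chr3:129270200-129270229, plus strand: ccatctcaggctCCGCCCacggtgcagcag
Itgb3, 3′ untranslated, ETS, chr11:104667538-104667567, plus strand: cccccattccagAGGAAGtggtgtcaagtc
Klf1, coding, ETS, chr8:84903269-84903298, minus strand: gacaattcaagaAGGAAGggggcgccgtgg
A match says that these letters stand in the window, not that a factor was bound. The CTCF cores read alike because the search required the match, so their likeness is no result about coding or untranslated exons.

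Exons were a small part of the distal landscape but held more open intervals per base than introns or intergenic sequence. They took 3.70% of distal shared intervals (95% Wilson interval 3.36 to 4.06%, which covers counting of regions only) and 2.39% of the nonpromoter bases, 61.6 Mb. The density was 6.72 intervals per Mb of exon, against 5.36 per Mb of intron (4875 intervals) and 3.67 per Mb of intergenic sequence (5913 intervals). As a ratio of the interval share to the base share, exons stood at 1.55, introns at 1.24 and intergenic sequence at 0.846. Taken from a single replicate list, the exon share was 3.75% in replicate 1 and 3.72% in replicate 2, so the replicates differed by less than the counting interval. The summit stood for the whole interval: exon bases made up 3.69% of the average distal interval. Of 816 distal intervals that touched an exon, 50.7% had the summit in it. The bases counted include repeats, where few intervals were found. Windows with most bases repeat-masked made up 4.96% of exon, 20.2% of intron and 36.1% of intergenic windows. Among the intervals these shares were 0.242%, 1.17% and 1.51%, and the part of repeats in the densities was not tested. Exon sequence also lies nearer to promoters. Windows at 1 to 2 kb from a protein-coding TSS made up 8.13% of exon, 3.57% of intron and 1.15% of intergenic windows. The part of this closeness in the densities was not tested. No test of the difference between parts of the genome was made, since regions are not replicates of a condition.

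**Figure D1:**
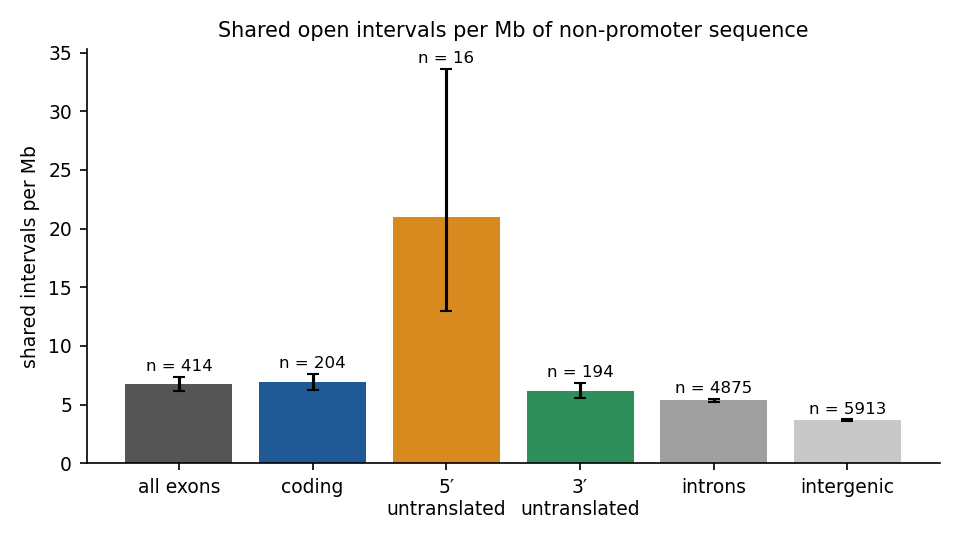
Shared intervals per Mb of nonpromoter sequence (vertical axis) in all exons, in the 3 exon classes, in introns and in intergenic sequence; bars start at 0, error bars are the 95% Wilson interval of the share scaled to Mb, and n is the number of intervals. Exons stand at 6.72 per Mb against 5.36 for introns and 3.67 for intergenic sequence, and the 5′ untranslated bar rests on 16 intervals.

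Coding and 3′ untranslated exons held nearly all members. The summit lay in coding sequence in 204 members (49.3%, interval 44.5 to 54.1%), in a 3′ untranslated stretch in 194 (46.9%, 42.1 to 51.7%) and in a 5′ untranslated stretch in 16 (3.86%, 2.39 to 6.19%). Nonpromoter exon bases divide in much the same way between coding (47.8%) and 3′ untranslated sequence (51.0%), and only 1.24% of them are 5′ untranslated. The density was therefore similar in coding exons (6.92 per Mb) and 3′ untranslated sequence (6.18 per Mb), whose counting intervals overlapped. In 5′ untranslated sequence it was 21 per Mb, on few intervals and on a small base of 0.762 Mb. The class depended on the transcript chosen in 5 members, which were counted as coding where any transcript codes there.

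Last exons as a whole held a share of members close to their share of exon sequence, whereas within coding sequence their share was higher than among windows. The summit lay in the last exon of every transcript that holds it in 248 members (59.9%, 55.1 to 64.5%). The centre base did so in 59.1% of windows centred in nonpromoter exons. A further 137 members lay in internal exons, 4 in first exons, 10 in single-exon transcripts and 15 in exons whose rank differs between transcripts. Among the 204 coding members, 58 were in the last exon (28.4%, 22.7 to 35.0%), against 19.8% of coding windows. Internal coding exons held 127 (62.3%, 55.4 to 68.6%), against 73.1% of windows. Of the 3′ untranslated members, 187 of 194 were in the last exon, where most 3′ untranslated sequence lies.

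Coding members often reached into introns, while 3′ untranslated members mostly lay wholly within an exon, a contrast that exon sequence at large shows too. The median exon length was 242 bp for coding members (interval 221 to 353 bp) and 2674 bp for 3′ untranslated members (2357 to 3103 bp), against 192 and 2891 bp for windows of these classes. The median distance from the summit to the nearest splice site was 66.5 bp in coding members (interval 50 to 85 bp) and 1183 bp in 3′ untranslated members. A median of 59.9% of the bases of a coding member were exonic, and 50 of 204 were exonic throughout. In the 3′ untranslated class 153 of 194 were exonic throughout. Within the exon, summits of 3′ untranslated members in last exons lay at a median 50.5% of the way along the exon (45.0 to 55.9%), against 58.8% for windows. For internal coding exons the values were 56.9% (51.1 to 64.8%) and 51.4%.

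Exonic intervals were found again in the other replicate about as often as intronic ones. Of 572 nonpromoter exonic intervals in replicate 1, 414 overlapped a replicate 2 interval, which is 72.4% (68.6 to 75.9%), against 78.5% of all replicate 1 intervals. Of 566 in replicate 2, 406 overlapped a replicate 1 interval, which is 71.7% (67.9 to 75.3%), against 80.2% of all replicate 2 intervals. Introns stood at 73.2% and 73.1% and promoters at 86.1% and 91.5%, so the exonic shares lay below the average of all intervals and near those of introns. The exonic intervals found in a single list were weaker, with a median signal of 6.79 in replicate 1 and 8.12 in replicate 2, against 8.61 and 9.60 for those found in both.

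The replicates placed the summit close together. The median gap between the replicate 1 and replicate 2 summits of a member was 11 bp, the same as for introns and intergenic intervals. In replicate 2 the summit again lay in a nonpromoter exon in 391 of 414 members (94.4%), in an intron in 21 and in intergenic sequence in 2. Its class was the same in 385 of those 391. Of the 414 members, 413 overlapped an interval of the IDR-thresholded list of both libraries and 412 one of the conservative list. A single summit was listed in 322 members, 2 summits in 82 and 3 or more in 10.

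Signal strength did not set exonic intervals apart from intronic ones. The signal is the value the authors' peak caller gave each peak, and is compared here only within a replicate list. Medians were 8.61 in replicate 1 and 9.64 in replicate 2 for exons, 8.59 and 9.74 for introns, 8.87 and 10.1 for intergenic intervals and 10.03 and 10.66 for promoters. The exon median was thus above the intron median in replicate 1 and below it in replicate 2. The classes were close as well: 8.62 and 9.59 in coding, 8.57 and 9.78 in 5′ untranslated and 8.58 and 9.74 in 3′ untranslated members. The log2 signals of the replicates correlated across the 414 members with Pearson's r = 0.75 and Spearman's rho = 0.73, and across introns with r = 0.75 and rho = 0.76 (n = 4875). These correlations are across regions of the same libraries and are a description.

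**Figure D2:**
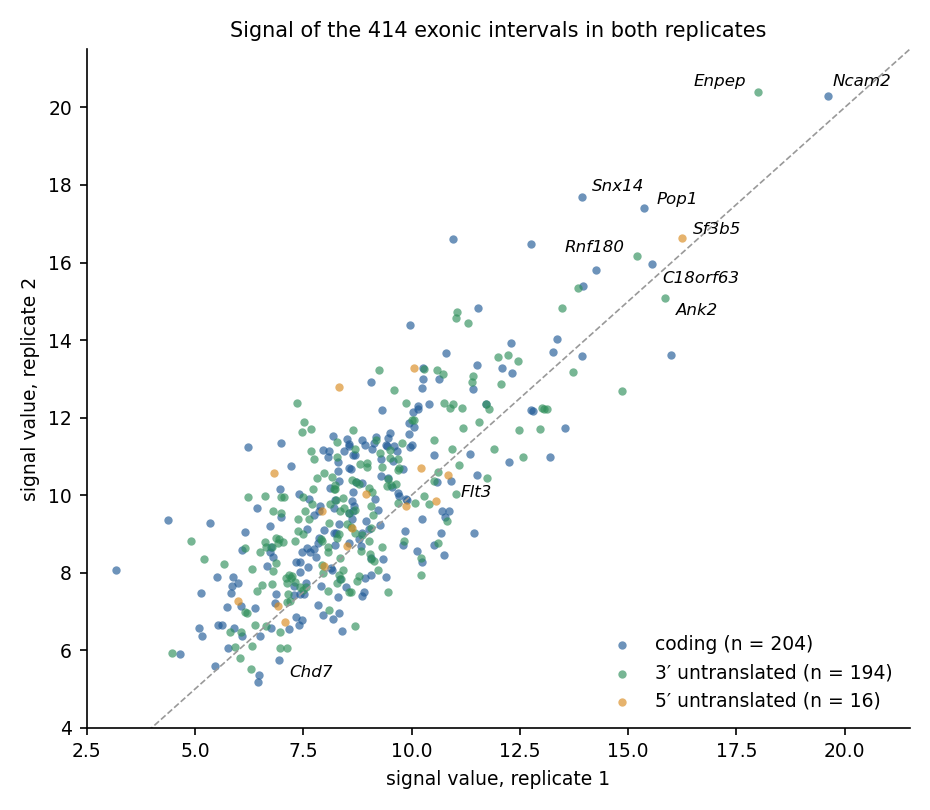
Signal value in replicate 1 (horizontal axis) against replicate 2 (vertical axis) for the 414 exonic intervals, a point each, coloured by exon class; the dashed line marks equal values, and signal has no unit. Ncam2 and Enpep stand at the top in both replicates, and the 3 classes overlap over most of their range.

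Among coding members the range was 3.17 to 19.6 in replicate 1 and 5.19 to 20.3 in replicate 2. The strongest was in exon 4 of 18 of Ncam2, a neural cell adhesion molecule of the immunoglobulin family, at chr16:81437455-81438161, with a signal of 19.6 in replicate 1 and 20.3 in replicate 2. That exon has 144 bp and lies far from the Ncam2 start, with the nearest protein-coding TSS 236992 bp away. An ETS and a RUNX match lay side by side in its window, 30 and 21 bp from the summit. Pop1, a protein subunit of RNase P and RNase MRP, had the interval chr15:34529855-34530506 in its last exon (17 of 17), with signals of 15.4 and 17.4. This window held ETS, RUNX and SP/KLF matches, all within 20 bp of the summit. C18orf63, an uncharacterised gene, had signals of 15.5 and 15.97 in its last exon at chr18:84799346-84799620. Snx14, a sorting nexin, had 13.9 and 17.7 in exon 12 of 29 at chr9:88404128-88404512. Cep85l, a centrosomal protein, had 14.3 and 15.8 in exon 3 of 13 at chr10:53348326-53348759. Rab6b, a small GTPase of Golgi transport, had 13.9 and 15.4 in its last exon (8 of 8) at chr9:103180711-103181441. These 6 were chosen by their mean signal percentile over both replicates, so their high ranks are no result. They divide evenly between internal and last exons.

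The 16 intervals in 5′ untranslated exons ranged from 5.99 to 16.2 in replicate 1 and from 6.73 to 16.6 in replicate 2. Sf3b5, a subunit of the SF3b splicing complex, stood apart with signals of 16.2 and 16.6 at chr10:13007928-13008728. Its window had a CpG observed/expected ratio of 1.01 and a CCAAT match, and the nearest protein-coding TSS was 3033 bp away. Bend6, a BEN domain protein, followed with 10.1 and 13.3 at chr1:33883362-33883824. Its summit was 79 bp from the start of a transcript outside the protein-coding set. Arsa, the lysosomal arylsulfatase A, had 10.8 and 10.5 at chr15:89475998-89476512, with the summit at such a start. Fam110b had 10.2 and 10.7 at chr4:5797816-5798856, 196 bp from such a start. Ndp encodes norrin, a ligand of the Frizzled-4 receptor, and had 8.32 and 12.8 at chrX:16894414-16894743. Ccdc8 had 10.6 and 9.84 at chr7:16993549-16994048 in a single-exon transcript, 1085 bp from a protein-coding TSS. After Sf3b5, the order of the others differed between the replicates.

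The 3′ untranslated members ranged from 4.48 to 18 in replicate 1 and from 5.51 to 20.4 in replicate 2. Enpep, the cell surface enzyme glutamyl aminopeptidase that also marks early B cells in the mouse, was the strongest, with 18 and 20.4 at chr3:129270066-129270446. Its last exon (20 of 20) has 1248 bp, and an SP/KLF match lay 1 bp from the summit in a window with a CpG ratio of 0.731. Rnf180, a RING finger ubiquitin ligase, had 15.2 and 16.2 at chr13:105147767-105148371. Ank2, ankyrin-B, which links membrane proteins to the spectrin skeleton, had 15.9 and 15.1 at chr3:126923613-126924081. Man2a1, the Golgi alpha-mannosidase II, had 13.8 and 15.4 at chr17:64754110-64754802, and Nsl1, a kinetochore protein, had 13.5 and 14.8 at chr1:191085551-191086051. Mmp25, a membrane-anchored metalloproteinase of leukocytes, had 13.7 and 13.2 at chr17:23630234-23630752. RUNX matches lay within 16 bp of the summit in Rnf180, Ank2 and Nsl1. For Ank2 and Man2a1 the start of a transcript outside the protein-coding set lay 210 and 192 bp from the summit.

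Exonic open regions were richer in G and C than intronic ones and richer than exon sequence at large. In windows of 150 bp either side of the summit the median G+C content was 54.5% for exonic intervals (53.5 to 55.5%), 50.2% for introns, 49.8% for intergenic intervals and 62.1% for promoters. Coding members stood at 57.1% (55.8 to 58.8%), 5′ untranslated members at 57.6% (51.2 to 66.8%) and 3′ untranslated members at 52.2% (50.8 to 53.2%). Equal windows over all nonpromoter sequence were classed by their centre base, so they too can reach past short exons. They gave 49.8% for coding, 44.9% for 5′ untranslated, 42.9% for 3′ untranslated and 42.5% for intronic windows. The excess over annotated sequence of the same kind was therefore present in every class, in introns as well. Sequence 1 kb from the summits was lower in G+C, with a median of 47.9% for coding and 47.3% for 3′ untranslated members.

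The CpG ratio, observed over expected CpG from the C and G content, separated the classes more than G+C did. Its median was 0.361 for exonic intervals (0.335 to 0.388), 0.233 for introns, 0.265 for intergenic intervals and 0.779 for promoters. It was 0.423 in coding, 0.591 in 5′ untranslated and 0.292 in 3′ untranslated members, against 0.304, 0.204 and 0.190 in windows of those classes. The ratio was 0.162 in intron windows and 0.134 in intergenic windows, below the intervals there as well. Within coding members it was 0.539 in last exons (0.434 to 0.691) and 0.378 in internal exons (0.344 to 0.424). Windows over last and internal coding exons had nearly equal medians of 0.318 and 0.299. Signal and G+C content were weakly related across the 414 members, with Spearman's rho of -0.23 in replicate 1 and -0.22 in replicate 2, given as a description.

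CpG-rich members were most frequent in last coding and 5′ untranslated exons. A window was called CpG-rich at a ratio of at least 0.6 and a G+C content of at least 50%. This held for 72 of 414 exonic intervals (17.4%, 14.0 to 21.3%), 2.75% of introns, 8.61% of intergenic intervals and 75.6% of promoters. By class it held for 28 of 58 members in last coding exons (48.3%, 35.9 to 60.8%), 19 of 127 in internal coding exons (15.0%), 7 of 16 in 5′ untranslated exons and 12 of 194 in 3′ untranslated exons (6.19%). Windows over last coding exons gave 8.83%, those over internal coding exons 2.95% and those over 3′ untranslated sequence 0.552%. All exon windows gave 2.57%, intron windows 0.318% and intergenic windows 0.389%. Intronic and intergenic intervals thus also exceeded their windows, and an excess of CpG-rich sequence is not particular to exons. The 72 members were no stronger than the other 342, with medians of 8.54 against 8.63 in replicate 1 and 9.59 against 9.69 in replicate 2. They lay nearer to a protein-coding TSS, at a median of 3.37 kb against 11.6 kb, and 21 of them lay at 1 to 2 kb from a TSS.

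The strongest CpG-rich members, named here after their values were seen, covered all classes. After Sf3b5 came Capn2, the protease calpain 2, in an 84 bp internal exon with signals of 12.8 and 16.5. Prdm2, a zinc finger protein of the PRDM family, had 16 and 13.6 with a CpG ratio of 1.05. Inpp5b, an inositol polyphosphate phosphatase, had 13.3 and 13.7 with a ratio of 1.05. Gm43517 followed, with 12.4 and 13.5 in a 3′ untranslated exon. In last coding exons the leading ones were Msl3l2 (12.8 and 12.2) and Synpo2l (12.8 and 12.2). Apoa1, the main protein of high density lipoprotein and a gene of liver and intestine, also had a CpG-rich interval in its last exon, with 9.09 and 11.2. Capn2 and Inpp5b had the start of a transcript outside the protein-coding set 62 and 164 bp from the summit.

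Short motifs were counted in the same windows, on both strands. The windows can reach past short exons, so a match counted for a member can lie outside its exon. The letters searched were AGGAAG for ETS, TGTGGT for RUNX, AGATAA for the GATA family, TGANTCA for AP-1, CCGCCC for SP/KLF, CAGCTG for the E-box, TTGCGCAA for C/EBP and CCAAT for NFY, and the IRF motif and the CTCF core by name. Matches of different motifs may share bases, as the E-box and RUNX matches of Itgb3 do, and base content was not matched between the groups. ETS matches stood in 57.5% of exonic intervals (52.7 to 62.2%), 64.8% of introns and 58.3% of intergenic intervals, and in 32.8% of all exon windows. RUNX matches stood in 36.0% (31.5 to 40.7%), 41.4% and 36.6%, and in 20.8% of exon windows. Both together stood in 87 members, 21% (17.4 to 25.2%), against 27.1% of introns, 22.2% of intergenic intervals and 6.57% of exon windows. At least ETS or RUNX was found in 300 of 414 members. Exonic intervals thus shared the pair of motifs of the distal elements elsewhere, at a share near that of intergenic intervals.

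The other motifs lay above or below the intronic share without a common direction. SP/KLF matches stood in 19.1% of exonic intervals (15.6 to 23.1%), 11.4% of introns, 67.3% of promoters and 5.88% of exon windows, and E-box matches in 30.9% (26.7 to 35.5%), 24.1%, 15.1% and 17.1%. GATA matches were less frequent in exonic intervals, at 8.94% (6.55 to 12.1%), than in introns at 14.1% and in exon windows at 14.9%, and stood in 4.59% of promoters. Intronic and intergenic intervals, at 14.1% and 13.7%, also lay below their own windows, at 18.5% and 20.3%. AP-1 matches stood in 8.45% (6.14 to 11.5%), against 13.6% of introns, 4.47% of promoters and 7.77% of exon windows. They were found in 12 of 204 coding and 22 of 194 3′ untranslated members (5.88% and 11.3%). Windows of those classes held them in 7.09% and 8.37%. NFY matches stood in 29.0% of exonic intervals, 28.7% of introns and 34.3% of exon windows. IRF matches stood in 4.59%, 5.35% and 4.18% of these, and a C/EBP match in 1 member. No listed motif was present in 25 members (6.04%), against 19.4% of exon windows. Intron windows held SP/KLF in 2.82%, the E-box in 11.5%, GATA in 18.5% and AP-1 in 8.86%. For these motifs exon windows differed from intron windows in the same direction as exonic from intronic intervals. For ETS and NFY, in 30.7% and 37.1% of intron windows, the direction was the reverse. The part of annotated sequence in these differences was not tested.

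**Figure D3:**
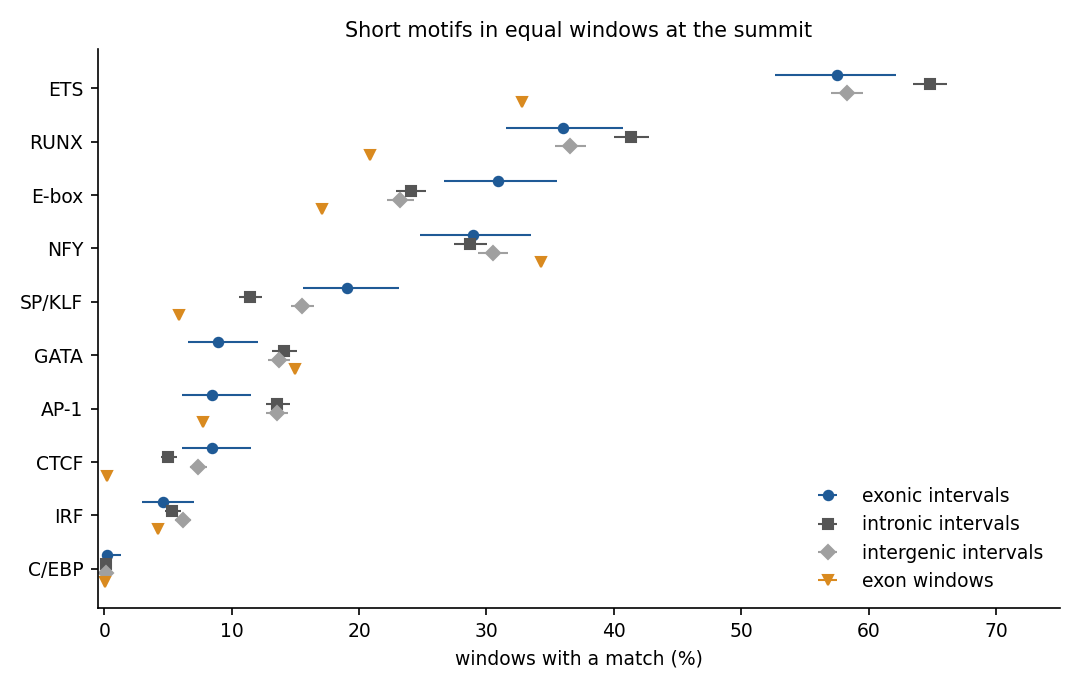
Percentage of windows with a match (horizontal axis) for 10 motifs in exonic, intronic and intergenic shared intervals and in windows over all nonpromoter exons; points are percentages and lines 95% Wilson intervals, which cover counting only. ETS and RUNX stand well above the exon windows in all 3 sets of intervals, and the CTCF core stands at 8.45% in exonic intervals against 0.250% in exon windows.

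The CTCF core was found in 35 members, 8.45% of them (6.14 to 11.5%). It stood in 5.05% of introns, 7.37% of intergenic intervals and 1.34% of promoters, and in 0.250% of exon windows. Intron windows held it in 0.160% and intergenic windows in 0.112%, so the excess over windows was common to the distal intervals. In the 3′ untranslated class 23 of 194 members held it (11.9%, 8.03 to 17.2%), in the coding class 12 of 204 (5.88%, 3.4 to 10%) and in the 5′ untranslated class 0 of 16. Windows of the 3′ untranslated and coding classes held it in 0.240% and 0.263%. The intervals of the coding and 3′ untranslated classes overlapped, so the classes were not separated at these numbers.

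The core lay close to the summit. Its median distance was 26 bp over the 35 members, 19 bp in 3′ untranslated and 38 bp in coding members, and 21 bp in introns. It lay within 50 bp in all 23 of the 3′ untranslated members and in 7 of the 12 coding ones. The core pointed along the host gene's strand in 14 of the 35. Members with the core were not stronger: their median signal was 8.62 in replicate 1 and 9.77 in replicate 2, against 8.60 and 9.63 for members without it. Their genes include Dhh, the hedgehog ligand of the gonad and nerve sheath, Hey1, a transcriptional target of Notch, Ror2, a receptor of Wnt5a, and Skap2, an adapter protein of leukocytes, all named after their values were seen.

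**Figure D4:**
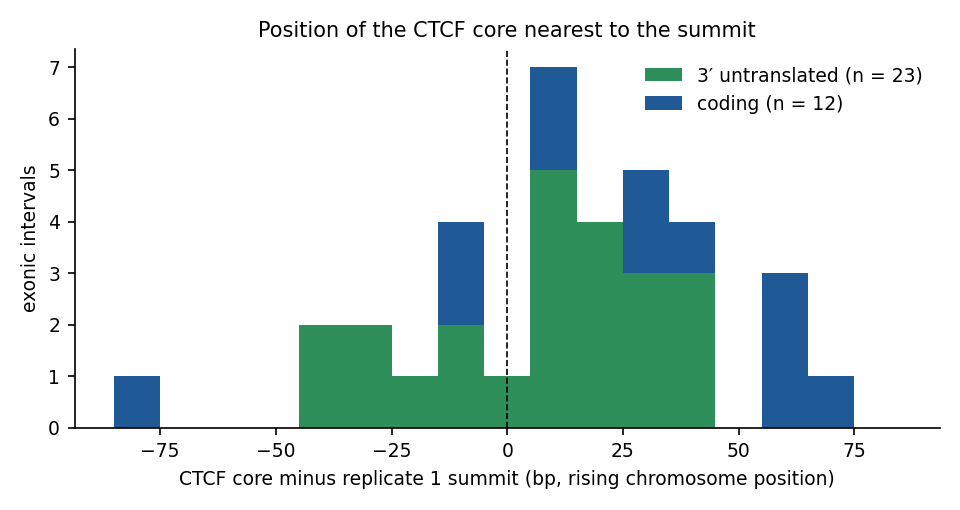
Distance in bp from the replicate 1 summit to the nearest CTCF core (horizontal axis, positive towards higher chromosome position) against the number of exonic intervals (vertical axis), stacked by exon class; the dashed line is the summit. All 23 of the 3′ untranslated members lie within 50 bp of the summit, and the coding members reach further out.

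The members fell in 413 genes, 1.89% of the 21829 protein-coding gene symbols, and nearly every gene held a single member. A total of 7 genes held 2: Bmpr1b, Draxin, Iqce, Itsn1, Nt5c2, Paox and Tle2. None held 3 or more, and 6 members lay in exons of more than 1 gene. In Nt5c2 and Iqce the paired intervals lay in the same exon, and in the other 5 genes in separate exons. In Nt5c2 and Tle2 both members of the pair overlapped the same replicate 2 interval, with a signal of 9.99 and 8.07. Each of these pairs is thus a single interval in replicate 2, and that of Tle2 had its summit in an intron. Draxin, a guidance protein of growing axons, had 11.0 and 14.6 in its 3′ untranslated exon and 7.28 and 7.67 in exon 2 of 7. Bmpr1b, a receptor of bone morphogenetic proteins, had 7.94 and 8.83 in its 3′ untranslated exon and 10.7 and 9.03 in exon 7 of 12.

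The share of host genes with an open promoter was near that of genes in general. A promoter interval in both replicates was present in 191 of the 413 hosts, 46.2% (41.5 to 51.1%), against 41.3% of all protein-coding genes. Such an interval needed only to reach within 1 kb of a TSS, so a member near that limit could count for its own host. The members in Ccdc8 and Magee1 reached that far. Such members were not left out, so the share of hosts is partly set by membership. Hosts of 3′ untranslated members stood at 51.5% (44.6 to 58.4%), hosts of coding members at 42.9% (36.3 to 49.8%) and hosts of 5′ untranslated members at 5 of 16. In 176 hosts neither replicate had a promoter interval. Hosts more often held an open intronic interval: 115 of 413 (27.8%) did, against 13.9% of all genes. Host genes were also longer, with a median span of 30.5 kb against 16.9 kb. The part of length in the promoter and intronic shares was not tested.

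Few genes of the stem cell lists were hosts, as of genes in general. Of 24 stem cell transcription factors 0 held a member, 13 had an open promoter and 11 held an open intronic interval. Over all genes 41.3% had an open promoter and 13.9% an open intronic interval. The median span of these factors was 48.0 kb against 16.9 kb for all genes, and the part of length was not tested. Of 16 stem cell surface and niche genes, 2 held a member. Flt3, the receptor tyrosine kinase of early multipotent progenitors, had an interval in coding exon 20 of 24 at chr5:147340875-147341649, with signals of 10.9 and 10.4. Itgb3, integrin beta 3, had one in its 3′ untranslated exon at chr11:104667437-104667805, with 7.67 and 11.1. Of 13 cytokine signalling brakes 1 held a member: Spred1, an inhibitor of Ras to ERK signalling, with 8.35 and 8.39 at chr2:117180578-117180828 and a CTCF core 10 bp from the summit. Of 26 chromatin regulators 1 did: Chd7, a chromatin remodeller of the CHD family, with 6.93 and 5.74 in exon 29 of 38 at chr4:8854004-8854551. Of 19 cell cycle genes 0 did. With 1.89% of all genes as hosts, these counts are too small to set a list apart.

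Among the marker genes of other cell types, 2 held a member. Klf1, the erythroid transcription factor, had an interval in its exon 2 of 3 at chr8:84902910-84903607, with 8.84 and 11.4, a G+C content of 70.1% and a CpG ratio of 0.874, 1304 bp from the TSS. Kdr, the VEGF receptor of endothelium, had one in its 3′ untranslated exon at chr5:75933436-75933994, with 9.09 and 10.1. No other gene on the 7 marker lists was a host. In gene families taken by symbol, 4 of 397 Zfp genes were hosts (Zfp219, Zfp235, Zfp57 and Zfp771) and 10 of 385 Slc genes. None of 1133 Olfr, 113 Krt, 91 Rpl and Rps, 68 Pcdh, 67 Hist or 39 Hox genes was a host. The share over all genes was 1.89%. A member must lie over 1 kb from a TSS, which leaves short genes little or no room. The median span was 0.539 kb in Hist, 2.81 kb in Krt, 3.20 kb in Rpl and Rps and 3.29 kb in Hox genes. The counts of 0 in these short genes are therefore no result about the families.

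The distance limit left most exonic intervals with the promoters. A further 2333 shared intervals had the summit in an exon at 1 kb or less from a protein-coding TSS and were counted as promoters. The members nearest to the limit were Magee1 at 1018 bp from the TSS, with signals of 7.85 and 9.59, Chd7 at 1024 bp with 6.93 and 5.74, and Hgfac at 1028 bp with 6.50 and 6.37. Just inside it were Olfr1509 at 956 bp with 9.59 and 13.1, Actl10 at 954 bp with 7.57 and 9.13, and A230072I06Rik at 937 bp with 5.48 and 6.00. A total of 40 members (9.66%) lay at 1 to 2 kb from a TSS, against 8.13% of exon windows, and the median distance over all members was 10.2 kb. A TSS outside the protein-coding set, such as that of a noncoding transcript, lay within 1 kb of 63 members (15.2%, 12.1 to 19.0%), against 9.31% of introns, 11.0% of intergenic intervals and 9.60% of exon windows. By class these were 38 coding, 7 5′ untranslated and 18 3′ untranslated members.

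Most members had a unique sequence. The 31 bases centred on the summit occurred more than once in the assembled chromosomes in 9 members (2.17%, 1.15 to 4.08%), against 1.66% of introns. These were in Nck2, Arf1, Rnaset2b, Tpd52, Dnajb6, Orai2, Tpm4 and both members of Paox, and how reads were divided between copies is unknown. Repeat-masked bases made up a median of 6.31% of the windows, against 8.31% of exon windows. By chromosome, members made up between 1.49% of distal intervals on X (3 of 202) and 5.39% on chromosome 5 (35 of 649), with 0 of 5 on Y.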

How the data were processed

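Chromatin accessibility was measured in 2 libraries of the same group. The files are mm10 peak lists, per the labels and the notes deposited with them. The aligner, peak caller and any read-end shift were not given in the sources used here, so their effect is unknown. The signal of each peak is the authors' deposited value. From these lists, intervals were taken once each, on assembled chromosomes, and placed against GENCODE M21 and the GRCm38 sequence from RefSeq with Python 3.11.15, numpy 2.4.6 and pandas 2.3.3. A summit was coding where any protein-coding transcript codes, otherwise 5′, otherwise 3′ untranslated. Windows over annotated sequence were laid end to end along each chromosome and classed by their centre base. All with that base in a nonpromoter exon were kept, and every 20th place elsewhere. Windows of short exons therefore also hold bases outside the exon. Intervals of shares are Wilson, those of medians are from order statistics, both at 95% and for counting only. No test between groups was made. The placement, motif and base counts were tested on simulated data. The text names the 6 strongest members per class by mean signal percentile, the 3 strongest in last coding exons, those of the gene lists and the 3 nearest to the 1 kb limit on each side. The members and lists were chosen with earlier results of these data known. Alternatives were other promoter windows, TSS sets, overlaps, lists, class orders and window sizes.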

Additional observations from a re-analysis of the deposited data

How the results depend on the processing

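Of 72 alternative values, 67 stayed within the counting interval of the reported value and 5 moved beyond it. With a promoter limit of 500 bp, the share of members in last exons was 54.7%. With only the 50% strongest intervals of each list (157 members), the exon share of distal intervals was 3.27%, the median signal of exonic minus intronic intervals in replicate 1 was -0.31 and the G+C difference was 2.66 percentage points. With windows of 50 bp either side of the summit, the CpG ratio of exonic minus intronic intervals was 0.183. The cause was not tested. The number of members was 1416 with the less strict lists, 956 with the IDR-thresholded list of both libraries and 1221 with its conservative version. Over all alternatives the G+C and CpG differences kept their sign, while the signal difference, 0.020 as reported, took either sign. Without replicate 1 the exon share was 3.72% and without replicate 2 it was 3.75%. No paired analysis was possible because the series has a single group. Depth is unknown, so an interval that was not called cannot be told apart from closed chromatin.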

Other observations

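In the 35 exonic intervals with a CTCF core, the core lay on the side of higher chromosome position from the replicate 1 summit in 24 and on the other side in 11. The share on the higher side was 68.6% in these intervals, 44.7% in 246 intronic intervals with a core and 50.7% in 436 intergenic ones. Read along the core's own strand, the core lay downstream of the summit in 14 of 35 exonic (40%), 32.5% of intronic and 39.4% of intergenic intervals. These counts were looked at after the offsets had been seen, and no test was made.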
